A study of Mus musculus with 6 samples.

Results

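The proteasome genes of the mouse were described in RNA of small extracellular vesicles (sEV), membrane-bound particles that cells release. They were chosen as the protein-coding genes of GENCODE M21 whose symbol starts with Psma, Psmb, Psmc, Psmd, Psme, Psmf or Psmg and a number. This gave 50 of the 53379 genes listed for each library. Of these, 49 encode subunits, activators, an inhibitor or assembly factors of the proteasome, and Psmc3ip is taken in by its symbol alone. The vesicles came from embryonic cortical neurons of wild-type (WT) mice. The NorEV group holds 3 libraries from control neurons, which the series text calls normoxic. The HypEV group holds 3 libraries from neurons treated with OGD/R, which the labels do not spell out and which is the group the series text calls hypoxic. The comparison asks which vesicle RNAs differ between these groups. The labels do not tell whether the 3 libraries of a group stem from separate cultures. The p-values therefore reflect the spread between libraries alone, and this may be technical.

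The proteasome is the protease that degrades proteins marked with ubiquitin in the cytosol and nucleus. Its 20S core is a barrel whose outer rings of alpha subunits form a gate and whose inner rings of beta subunits hold the catalytic sites. The 19S regulatory particle caps the barrel; its base of ATPases unfolds the substrate and opens the gate, and its lid removes ubiquitin. In neurons proteasomes take part in the turnover of synaptic proteins and in the removal of damaged proteins. The RNA described here is vesicle RNA, and no value below measures protein or protease activity.

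The libraries held 1092724 to 2141611 fragments counted on genes, recovered from the values in FPKM (fragments per kilobase of transcript, scaled to the library total). A single read on a gene of 1 kilobase was worth 0.467 to 0.915 FPKM, and a member held a median of 27.5 reads per library. One annotated gene that is no member, Gm23935, took a large share of some libraries. The annotation labels it a miRNA gene, and the kind of RNA behind its reads was not tested. It took 4.31, 0.554 and 0.297% of the reads of NorEV 1, 2 and 3. In HypEV 1, 2 and 3 it took 49.5, 1.95 and 24.4%. FPKM divides by the library total, so all other values move with this share. Summed FPKM of 10 neuronal markers ran from 86.6 to 115.7 in NorEV and from 69.7 to 107.9 in HypEV. The 5 astrocyte markers summed to 46.3 to 73.2 and to 27.1 to 59.5, the 5 microglial markers to 45.4 to 67.2 and to 43.7 to 75.3, the 5 oligodendrocyte markers to 28.8 to 53.0 and to 18.4 to 47.2, and the 5 endothelial and mural markers to 56.8 to 104.6 and to 28.2 to 72.9. The 3 erythroid markers summed to 8.54 to 40.5 and to 6.31 to 22.0, and 5 vesicle proteins to 72.8 to 87.4 and to 53.1 to 75.1. No marker was at 0 in all libraries, and markers of other cell types were listed beside those of neurons. A value above 0 does not show a level above background. Olfactory receptor genes, used below as that background, had a median of 2.32 FPKM and a 90th percentile of 7.10 FPKM. The lists differ in size, so their sums are not levels per gene. The part of other cell types in the results was not tested. In such bulk vesicle RNA fewer cells of a type, fewer vesicles per cell and less RNA per vesicle cannot be told apart.

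Several members have near-identical copies elsewhere in the genome, and for these the reads of the member and of the copy may have been mixed. For 8 members a copy at least 90% identical covers over 50% of the length: Psma4, Psma5, Psmb5, Psmc1, Psmd2, Psmd14, Psme2 and Psme2b. Psmb5 encodes the beta subunit with chymotrypsin-like activity. Its processed pseudogene Gm3375 differs from it at 9 of 796 aligned positions, with 194 identical bases in a row, and Psmb5-ps at 67 of 810, with 53 in a row. Psme2, a subunit of the PA28 activator, and the single-exon gene Psme2b differ at 5 of 794 positions, with 341 identical bases in a row. The stretches of 90 bases below, from coding exons of Psmb5 and from its copies (GENCODE M21 transcripts, GRCm38), are given as an example. They are an ungapped coding stretch in which each copy differs at 2 bases, and capitals mark the bases of a copy that differ from the member. Over the whole alignment Psmb5-ps differs at more positions than Gm3375, so this stretch understates the distance of Psmb5-ps from Psmb5.
Psmb5: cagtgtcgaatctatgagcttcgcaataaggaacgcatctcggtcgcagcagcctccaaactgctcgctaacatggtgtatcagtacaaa
Gm3375: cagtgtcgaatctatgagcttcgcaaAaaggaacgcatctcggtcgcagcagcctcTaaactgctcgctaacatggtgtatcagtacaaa
Psmb5-ps: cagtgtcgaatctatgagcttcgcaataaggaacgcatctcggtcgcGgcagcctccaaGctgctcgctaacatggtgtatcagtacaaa

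Psmb5 (ENSMUSG00000022193) lies at chr14:54614119-54618022 on the minus strand, Gm3375 at chr7:3181093-3181888 on the plus strand and Psmb5-ps at chr11:102659128-102659925 on the minus strand. Psme2 (ENSMUSG00000079197) lies at chr14:55587441-55591113 and Psme2b (ENSMUSG00000078153) at chr11:48945354-48946190, both on the minus strand. The share of a member's stretches of 50 bases that occur without a mismatch in another annotated gene was 69.3% for Psme2b, 59.3% for Psme2, 54.5% for Psma5 and 50% for Psmb5. It was over 10% for 9 members and 0 for 30. How the authors treated reads that fit more than 1 place is not given in the sources used here.

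All 50 members had a mean of at least 1 FPKM over the 6 libraries. Only 4 of their values were 0, in Psma7, Psmb5 and Psme2b. The members ran from a mean of 1.92 FPKM for Psmb5 to 29.0 FPKM for Psmd7. As a background level, olfactory receptor genes, which are known from sensory neurons of the nose, had a median of 2.32 FPKM and a 90th percentile of 7.10 FPKM. Of the members, 49 lay above that median and 38 of 50 above that percentile, which 47.8% of all protein-coding genes exceeded. The 47 members with whole reads accounted for 0.129% of reads in NorEV 1 (95% Wilson interval from 0.122 to 0.136%), 0.126% in NorEV 2 (0.120 to 0.132%) and 0.138% in NorEV 3 (0.132 to 0.144%). In HypEV 1, 2 and 3 they took 0.0829% (0.0792 to 0.0869), 0.143% (0.137 to 0.149) and 0.117% (0.112 to 0.123). HypEV 1 was thus lowest and HypEV 2 highest, and the groups overlapped. Of the reads outside Gm23935 and its near-identical genes the members took 0.135, 0.126 and 0.139% in NorEV and 0.164, 0.146 and 0.155% in HypEV. With these totals the groups do not overlap, and HypEV 1 turned from lowest to highest. This share was not computed for other genes, so whether it is particular to the members is not known. Intervals cover counting error only.

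**Figure D1:**
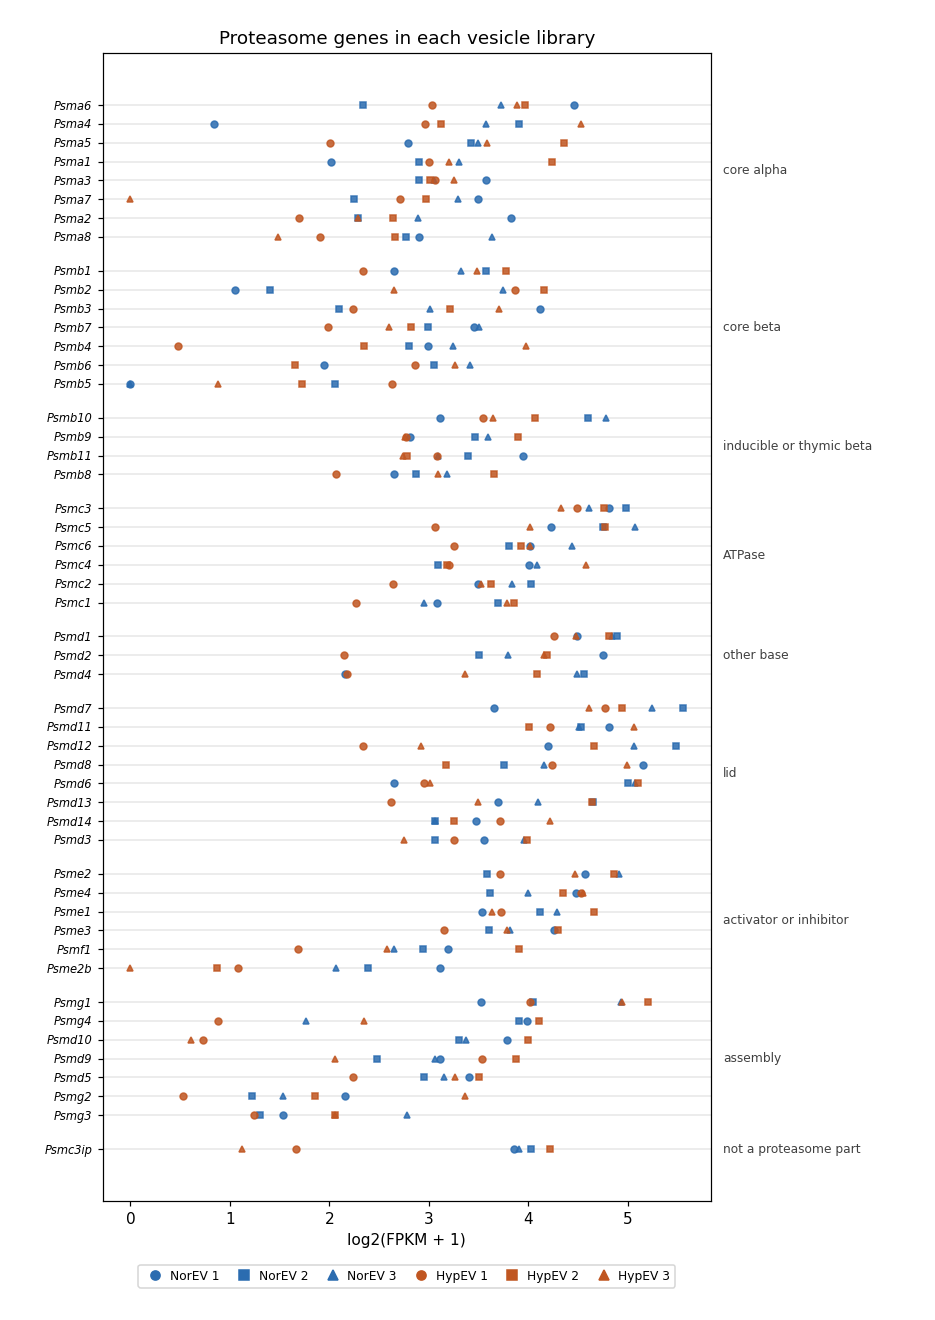
The 50 members by class, with log2(FPKM + 1) of each of the 6 libraries as points, NorEV and HypEV in different colours. Means run from 1.92 FPKM for Psmb5 to 29.0 FPKM for Psmd7, and for most members the points of both groups overlap.

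Genes of the 19S particle were listed at higher levels per length than genes of the 20S core. Over all libraries the 17 subunits of the 19S particle had means of 9.39 to 29.0 FPKM and the 14 constitutive subunits of the 20S core means of 1.92 to 12.2 FPKM. The means of 13 of the 17 lay above the highest core subunit, and 3 of the 14 core subunits lay above the lowest 19S subunit. The median 19S subunit was at 15.1, 22.1 and 20.7 FPKM in NorEV 1, 2 and 3 and at 8.18, 15.99 and 15.2 FPKM in HypEV 1, 2 and 3. The median core subunit was at 6.44, 6.22 and 8.98 FPKM in NorEV and at 5.37, 7.38 and 8.57 FPKM in HypEV. The 19S median was higher in 6 of 6 libraries, by a mean ratio of 2.28 ± 0.70 (SD, n = 6 libraries). The ratio was 2.34, 3.55 and 2.30 in NorEV 1, 2 and 3 against 1.52, 2.17 and 1.78 in HypEV 1, 2 and 3, so that each HypEV library lay below each NorEV library. The median of all protein-coding genes was 6.72, 7.24 and 8.21 FPKM in NorEV and 3.53, 8.22 and 5.05 FPKM in HypEV. The 19S median lay above it in each library, and the core median lay above it in NorEV 3, HypEV 1 and HypEV 3 and below it in the others.

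The order of the particles also held where length or copies were treated differently, settings that were chosen after the data were seen. The mean ratio was 2.25 with the length of the longest coding transcript and 2.28 with the length of all exons. It was 2.58 without members that have a copy over 20% of their length (7 core and 14 19S subunits left). It was 2.497 with only the members whose longest transcript is coding (10 and 10 left). In each of these settings the 19S median was higher in 6 of 6 libraries. The lower ratio of HypEV did not hold in each: with the length of all exons it was 1.98, 2.99 and 2.32 in NorEV against 1.93, 2.28 and 2.20 in HypEV, and without members with a copy 1.52, 5.75 and 2.43 and 1.51, 2.42 and 1.86, where the groups overlap. Core transcripts were shorter (859 to 2911 bases, median 1220) than 19S transcripts (1387 to 3466, median 1983). Over protein-coding genes in these length ranges the library medians ran from 3.14 to 7.77 FPKM and from 3.49 to 8.22 FPKM.

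**Figure D2:**
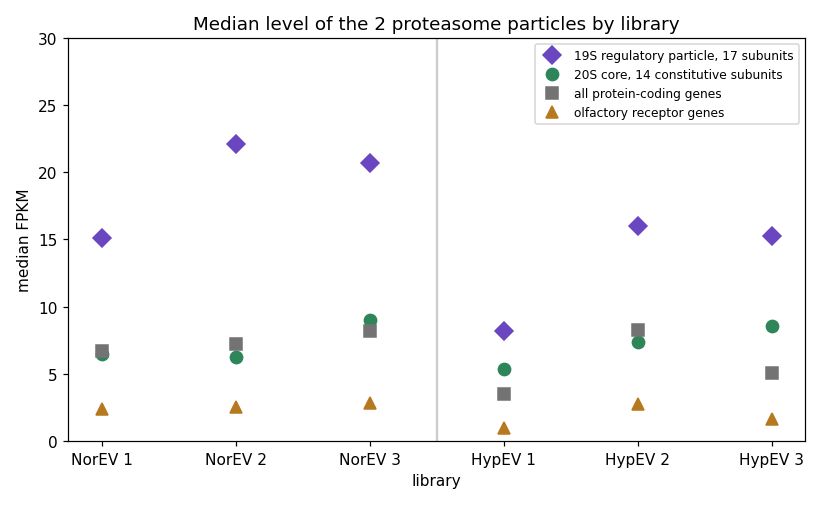
Median FPKM of the 14 constitutive 20S core subunits and the 17 subunits of the 19S particle in each of the 6 libraries. The 19S median lies above the core median in 6 of 6 libraries, least in HypEV 1 (8.18 against 5.37 FPKM).

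Among the alpha subunits, which form the outer rings, mean levels of the constitutive Psma1 to Psma7 lay between 5.82 and 12.2 FPKM. Single libraries spread more widely than these means. Psma4 was at 0.786, 13.97 and 10.9 FPKM in NorEV 1, 2 and 3 and at 6.81, 7.72 and 22.1 FPKM in HypEV 1, 2 and 3, that is 1 read in NorEV 1 and 34 in HypEV 3. Psma5, with a copy (Gm8394) 98.6% identical over 76.8% of its length, was at 5.91, 9.71 and 10.3 FPKM and at 3.01, 19.5 and 11.01 FPKM, and its groups overlapped too. Psma1 was at 3.05, 6.48 and 8.91 FPKM in NorEV and at 6.998, 17.9 and 8.19 FPKM in HypEV, with NorEV 1 lowest, HypEV 2 highest and the others overlapping. Its log2 fold change (HypEV minus NorEV, on log2(FPKM + 1)) was 0.74 ± 0.56 (SE), and it did not pass limma's test (adjusted p = 0.794). Psma8 encodes an alpha subunit known from testis, where it replaces Psma7. It was listed at 6.49, 5.85 and 11.46 FPKM in NorEV and at 2.76, 5.31 and 1.79 FPKM in HypEV. All 3 HypEV libraries lay below all NorEV libraries, with means of 3.29 ± 1.82 and 7.93 ± 3.07 FPKM (SD, n = 3). The log2 fold change of -1.09 ± 0.56 did not pass (adjusted p = 0.726).

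Of the beta subunits, the inner rings of the core, 3 are catalytic in the constitutive particle. Psmb6 has the caspase-like, Psmb7 the trypsin-like and Psmb5 the chymotrypsin-like activity. Psmb7 was at 9.96, 6.95 and 10.3 FPKM in NorEV and at 2.95, 6.07 and 5.05 FPKM in HypEV, lower in each HypEV library than in each NorEV library. Its log2 fold change was -0.85 ± 0.48 (adjusted p = 0.746). Psmb6 was at 2.84, 7.32 and 9.70 FPKM in NorEV and at 6.28, 2.15 and 8.62 FPKM in HypEV, with overlapping groups. Psmb5 had the lowest mean of the 50 members, with 0, 3.15 and 0 FPKM in NorEV and 5.19, 2.31 and 0.842 FPKM in HypEV. These are 0, 4, 0, 10, 3 and 1 reads, and the groups overlapped. Its copies, whose sequences stand above, were listed at 8.05, 4.44 and 3.36 FPKM (Gm3375) and at 0, 2.66 and 3.35 FPKM (Psmb5-ps) in NorEV. In HypEV they were at 0, 1.74 and 0.951 FPKM and at 0, 4.33 and 4.74 FPKM. Whether reads of Psmb5 were counted on these copies, the other way round, or on no gene was not tested. Among the structural beta subunits, Psmb2 was at 1.07, 1.65 and 12.5 FPKM in NorEV and at 13.6, 16.9 and 5.29 FPKM in HypEV. It had the highest log2 fold change of the core (1.49 ± 0.80, adjusted p = 0.738), on 1 to 25 reads per library. The other structural subunits Psmb1, Psmb3 and Psmb4 had means of 8.71, 8.46 and 6.77 FPKM.

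Interferon-gamma induces 3 other catalytic subunits that replace the constitutive ones in the immunoproteasome: Psmb8 in place of Psmb5, Psmb9 of Psmb6 and Psmb10 of Psmb7. Together these 3 inducible subunits were listed at 18.99, 39.6 and 45.7 FPKM in NorEV and at 19.7, 41.3 and 24.9 FPKM in HypEV. Their constitutive partners summed to 12.8, 17.4 and 20.03 FPKM and to 14.4, 10.5 and 14.5 FPKM. The inducible sum was higher in 6 of 6 libraries, by 1.37 to 3.93 times. Without the pair that holds Psmb5 it was also higher in 6 of 6 libraries, by 1.07 to 3.62 times. This order depends on the length used, since for Psmb6, Psmb7, Psmb8 and Psmb9 the longest transcript is not coding. With the length of the longest coding transcript, a setting added after the data were seen, NorEV 1 turned (26.7 FPKM inducible against 27.9 FPKM constitutive, and 20.5 against 27.9 FPKM without the Psmb5 pair), and the inducible sum was higher in 5 of 6 libraries in both cases. By pairs the order was less even: Psmb8 was above Psmb5 in 5 of 6 libraries, Psmb9 above Psmb6 in 4 and Psmb10 above Psmb7 in 5. Psmb8 was at 5.28, 6.31 and 8.07 FPKM in NorEV and at 3.18, 11.6 and 7.54 FPKM in HypEV, with overlapping groups and a log2 fold change of 0.04 ± 0.55 (adjusted p = 0.990) that ran from -0.32 to 0.48 when 1 library was left out. Psmb9 was at 6.03, 10.1 and 11.1 FPKM and at 5.83, 13.9 and 5.78 FPKM. Psmb10 had the highest levels of the inducible subunits, with 7.68, 23.2 and 26.5 FPKM and 10.7, 15.8 and 11.55 FPKM. Microglia are known to express immunoproteasome subunits. The 5 microglial markers summed to 51.97, 45.4 and 67.2 FPKM in NorEV and to 43.7, 75.3 and 48.6 FPKM in HypEV, and their part in these levels was not tested.

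Psmb11 (ENSMUSG00000072423, chr14:54621433-54629556, plus strand, its longest transcript a single exon) encodes the beta subunit of thymic cortical epithelium and lies close to Psmb5. It was listed at 14.4, 9.50 and 7.56 FPKM in NorEV and at 7.48, 5.86 and 5.70 FPKM in HypEV, on 32 to 68 reads per library. Each HypEV library lay below each NorEV library, but HypEV 1 (7.48 FPKM) only just below NorEV 3 (7.56 FPKM). The log2 fold change was -0.61 ± 0.45 (adjusted p = 0.789). With totals outside the Gm23935 family, which was largest in HypEV 1, it was -0.21. Psmb11 was higher than Psmb5 in 6 of 6 libraries. A transcript known from thymus and one known from testis, Psma8, were thus listed at means of 8.42 and 5.61 FPKM, within the range of the constitutive core. That range starts at 1.92 FPKM, below the olfactory receptor median of 2.32 FPKM. Against the olfactory receptor 90th percentile of 7.10 FPKM, Psmb11 lay above and Psma8 below.

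The ATPases of the base, Psmc1 to Psmc6, form the ring that unfolds substrates. Psmc3 was the highest of them and the second of all members, at 27.2, 30.7 and 23.5 FPKM in NorEV and 21.6, 26.2 and 19.1 FPKM in HypEV. Its groups overlapped, with means of 27.1 ± 3.59 and 22.3 ± 3.61 FPKM (SD, n = 3). Psmc5 was at 17.7, 25.9 and 32.6 FPKM in NorEV and at 7.37, 26.3 and 15.2 FPKM in HypEV, where HypEV 1 was lowest. The log2 fold change was -0.73 ± 0.52 (adjusted p = 0.778). Psmc1 was at 7.48, 12.007 and 6.73 FPKM and at 3.82, 13.5 and 12.8 FPKM, with a log2 fold change of 0.06 ± 0.56 (adjusted p = 0.982) that ran from -0.22 to 0.58 when 1 library was left out. Psmc2, Psmc4 and Psmc6 had means of 11.01, 12.96 and 14.5 FPKM. Psmc1 has a copy, Gm9575, that is 91.9% identical over 85.6% of its length. Another copy, AC110212.1, is 95.5% identical over 82.5% of the length and is not among the genes listed for the libraries.

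The other base subunits scaffold the particle or bind ubiquitin. Psmd1, a scaffold, was at 21.5, 28.6 and 27.7 FPKM in NorEV and at 18.2, 27.1 and 21.4 FPKM in HypEV. It had the third highest mean of the members (24.1 FPKM). Psmd2, the other scaffold, was at 25.9, 10.4 and 12.9 FPKM in NorEV and at 3.42, 17.3 and 16.9 FPKM in HypEV. HypEV 1 was lowest and NorEV 1 highest, with a log2 fold change of -0.52 ± 0.65 (adjusted p = 0.834) that became 0.16 without HypEV 1. Psmd2 has a copy, Gm5422, that is 96.9% identical over 80.4% of its length.

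The lid, which holds the deubiquitinase Psmd14 and scaffold subunits around it, had the highest class median (19.8 FPKM, 8 genes), with Psmd3 lowest at a mean of 10.3 FPKM. Psmd7, the partner of Psmd14, was at 11.6, 46.1 and 36.8 FPKM in NorEV and at 26.3, 29.8 and 23.5 FPKM in HypEV. The NorEV libraries enclosed all HypEV libraries (31.5 ± 17.9 against 26.5 ± 3.15 FPKM, SD, n = 3). Psmd12 (ENSMUSG00000020720, chr11:107479484-107504362, plus strand) had the smallest unadjusted p of the lid. It was at 17.3, 43.8 and 32.5 FPKM in NorEV and at 4.06, 24.4 and 6.58 FPKM in HypEV. HypEV 1 and HypEV 3 were lowest and HypEV 2 lay between NorEV 1 and NorEV 3, so the groups overlapped. The log2 fold change was -1.61 ± 0.65 (adjusted p = 0.720). HypEV 1 and HypEV 3 are also the libraries with the largest Gm23935 share; with totals outside the Gm23935 family the log2 fold change was -1.22, and in the 3 libraries with the smallest share (NorEV 2, NorEV 3 and HypEV 2, thus 1 HypEV library) it was -0.61. Psmd14 was at 10.1, 7.35 and 7.38 FPKM in NorEV and at 12.1, 8.53 and 17.7 FPKM in HypEV, with a log2 fold change of 0.53 ± 0.45 (adjusted p = 0.798). Its copy Gm12096, 91.1% identical over 55.0% of the length, was listed above it in 5 of 6 libraries, at 26.5, 111.0 and 68.6 FPKM and at 42.8, 95.1 and 17.4 FPKM.

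Activators other than the 19S particle bind the same ends of the core. Psme1 and Psme2 form the interferon-inducible PA28 ring, Psme3 its nuclear form and Psme4 the single-chain activator PA200. Psme1 was at 10.6, 16.4 and 18.5 FPKM in NorEV and at 12.2, 24.4 and 11.4 FPKM in HypEV. Psme2 was at 22.8, 11.03 and 29.2 FPKM and at 12.1, 28.0 and 21.2 FPKM. Both had overlapping groups. Psme3 was at 18.2, 11.2 and 13.1 FPKM and at 7.89, 18.7 and 12.8 FPKM. Psme4, with 103 to 307 reads per library the member with the most reads, was at 21.3, 11.2 and 14.9 FPKM in NorEV and at 22.1, 19.4 and 22.4 FPKM in HypEV. Of its NorEV libraries only NorEV 1 reached the HypEV range, and the log2 fold change of 0.45 ± 0.40 did not pass (adjusted p = 0.799). Psmf1, an inhibitor of the core, was at 8.17, 6.69 and 5.27 FPKM and at 2.21, 13.98 and 4.97 FPKM.

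Psme2b had the smallest p of all members. It was at 7.65, 4.23 and 3.20 FPKM in NorEV and at 1.12, 0.826 and 0 FPKM in HypEV, with means of 5.03 ± 2.33 and 0.647 ± 0.579 FPKM (SD, n = 3). All 3 HypEV libraries lay below all NorEV libraries. The log2 fold change was -1.87 ± 0.67 and did not pass (adjusted p = 0.713). The values rest on 7, 5 and 4 reads and on 2, 1 and 0 reads. Psme2, which differs from it at 5 of 794 aligned positions, had overlapping groups. On which of the genes, if any, shared reads were counted is not known.

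Assembly factors build the core (Psmg1 to Psmg4) and the base (Psmd5, Psmd9 and Psmd10) and leave the finished particle. Psmg1 was the highest of them, at 10.5, 15.6 and 29.5 FPKM in NorEV and 15.2, 35.8 and 29.7 FPKM in HypEV. It had overlapping groups and a log2 fold change of 0.55 ± 0.51 (adjusted p = 0.799). Psmg2, its partner, was at 3.46, 1.34 and 1.90 FPKM and at 0.441, 2.61 and 9.29 FPKM. Psmg3 was at 1.91, 1.47 and 5.85 FPKM and at 1.36, 3.17 and 3.15 FPKM, the second lowest mean of the members (2.82 FPKM) before Psme2b (2.84 FPKM). Psmg4 was at 14.8, 14.02 and 2.41 FPKM and at 0.841, 16.2 and 4.09 FPKM, so neither group was uniform. Psmd10, also known as the oncoprotein gankyrin, was at 12.8, 8.91 and 9.36 FPKM in NorEV and at 0.653, 15.0 and 0.529 FPKM in HypEV. HypEV 1 and HypEV 3, with 2 and 1 reads, were low, and HypEV 2, with 31 reads, was the highest of all. The log2 fold change of -1.71 ± 0.90 did not pass (adjusted p = 0.732). It was -1.52 with totals outside the Gm23935 family, and 0.66 in the 3 libraries with the smallest Gm23935 share, of which only HypEV 2 is a HypEV library. Psmd5 and Psmd9 had means of 7.83 and 7.84 FPKM.

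Psmc3ip, which encodes a partner of the meiotic recombinase and is no part of the proteasome, was low in the same libraries as Psmd10. It was at 13.5, 15.3 and 13.99 FPKM in NorEV and at 2.17, 17.7 and 1.17 FPKM in HypEV. The NorEV libraries lay close together (14.3 ± 0.968 FPKM, SD, n = 3), and the HypEV libraries did not (7.01 ± 9.26 FPKM). The log2 fold change was -1.59 ± 0.78 (adjusted p = 0.721). It was -1.28 with totals outside the Gm23935 family and 0.25 in those 3 libraries.

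**Figure D3:**
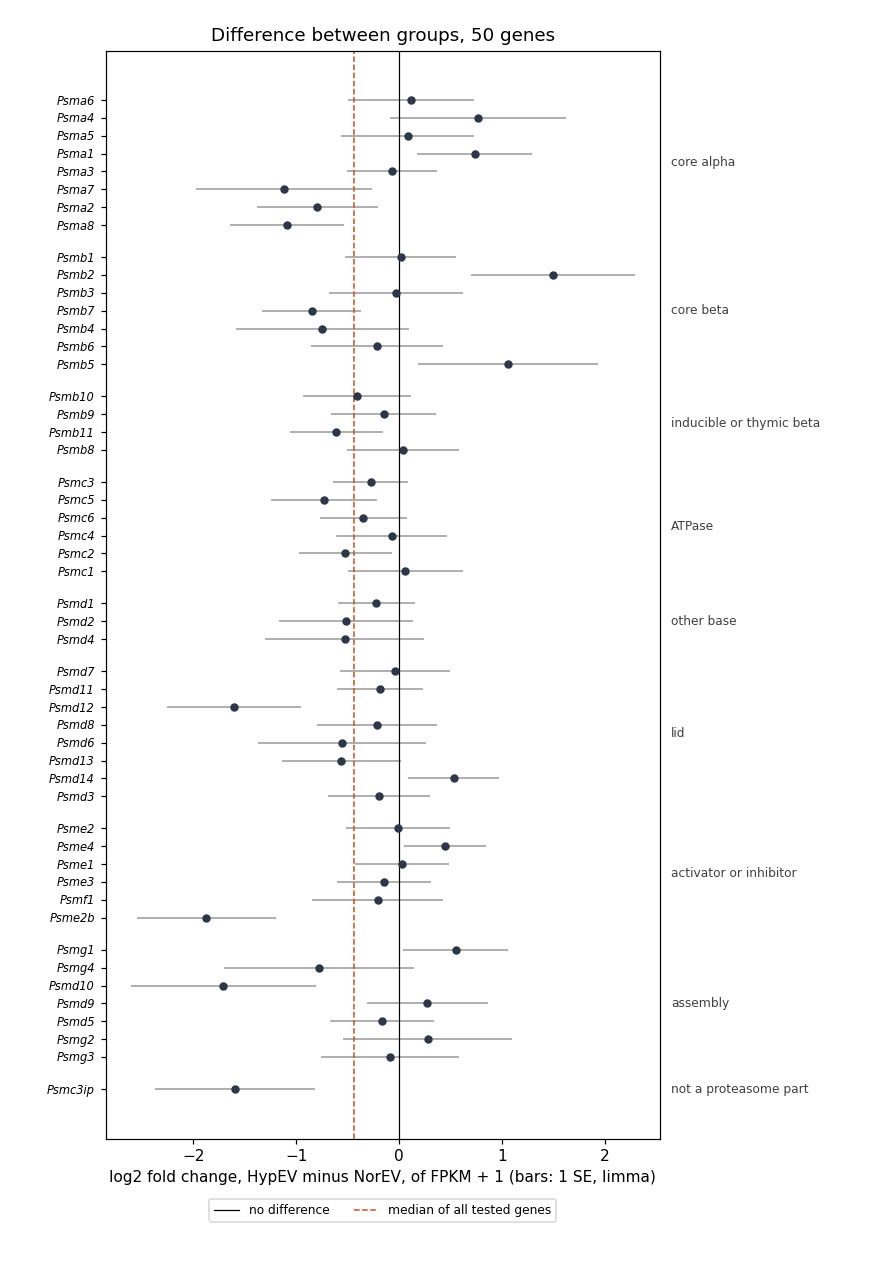
Log2 fold change (HypEV minus NorEV, on log2(FPKM + 1)) of the 50 members by class, with standard errors. The dashed line marks the median of all tested genes (-0.44); 35 members lie below 0 and 15 above, and none passed the test.

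Across the family no member passed the test, in either direction. In limma's test over 44125 genes 7 genes (0.0159%) had an adjusted p under 0.05, 6 lower (0.0136%) and 1 higher (0.00227%) in HypEV, and 0 of the 50 members did, with a lowest adjusted p of 0.713. At an unadjusted p under 0.05 there were 2 members, Psme2b and Psmd12, both with lower values in HypEV, against 6.13% of all tested genes in that direction. In the other direction there was no such member, against 0.635%. The groups did not overlap for 4 members (8%), all lower in HypEV: Psma8, Psmb7, Psmb11 and Psme2b. The share over all genes was 10.8%, and no member had non-overlapping groups in the other direction, against 1.1% of all genes. These counts use totals that include Gm23935. With totals outside its family the log2 fold changes were -0.75 for Psma8, -0.48 for Psmb7, -0.21 for Psmb11 and -1.69 for Psme2b. Whether their groups stay apart with those totals was not tested. The standard errors of the members ran from 0.36 to 0.92, with a median of 0.56. For a median member the highest library was 4.30 times the lowest. Leaving out 1 library therefore moved several of the fold changes above by over 1.5 times. Psma1 ran from 0.36 (without HypEV 2) to 1.019, Psmb2 from 0.98 (without NorEV 1) to 2.34 (without NorEV 3) and Psmb11 from -0.80 to -0.38 (without NorEV 1). Psmc5 ran from -1.14 (without HypEV 2) to -0.29 (without HypEV 1), Psmc3ip from -2.54 (without HypEV 2) to -0.99 (without HypEV 3) and Psmd10 from -2.82 (without HypEV 2) to -1.13 (without HypEV 3). Psmd14 ran from 0.28 (without HypEV 3) to 0.77, Psme4 from 0.24 (without NorEV 2) to 0.67 and Psmg1 from 0.23 (without NorEV 1) to 0.93 (without NorEV 3).

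Of the members 35 had log2 fold changes under 0 and 15 above, that is 70% lower against 74.9% of all genes. This split follows the scaling. With libraries centred on their medians it was 17 lower and 33 higher (34% lower against 49.5% of all genes), with quantile normalization 18 and 32 (36 against 48.3%) and with totals outside the Gm23935 family 17 and 33 (34 against 56.8%). Of the 47 members with whole reads limma-voom gave 38 lower and 9 higher on all reads (80.9 against 78.0%) and 18 and 29 without that family (38.3 against 56.3%). Without HypEV 1 the split was 24 and 26 (48 against 61.8%). The members' share was above that of all genes with limma-voom on all reads, with no filter (70 against 66.6%) and without HypEV 3 (76 against 71.8%). The median of all tested genes was itself -0.44. The members' median was -0.19, which is 0.25 above it, and 33 of the 50 lay above it. No p-value is given for this difference, since the members are not replicates.

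By class the medians relative to all genes were 0.45 for the alpha subunits (8 genes, 4 with log2 fold changes under 0), 0.41 for the beta subunits (7 genes, 4 under 0) and 0.16 for the inducible and thymic beta subunits (4 genes, 3 under 0). They were 0.13 for the ATPases (6 genes, 5 under 0), -0.08 for the other base subunits (3 genes, 3 under 0) and 0.24 for the lid (8 genes, 7 under 0). They were 0.36 for the activators and the inhibitor (6 genes, 4 under 0) and 0.35 for the assembly factors (7 genes, 4 under 0). These class values depend on single libraries. Leaving out 1 library gave 0.10 (without NorEV 2) to 0.48 for the alpha subunits, 0.06 (without HypEV 3) to 0.62 for the beta subunits and 0.07 (without HypEV 1) to 0.32 for the inducible and thymic ones. It gave -0.10 (without HypEV 3) to 0.31 (without HypEV 2) for the ATPases, -0.19 (without HypEV 3) to 0.29 (without NorEV 2) for the other base subunits and 0.05 (without HypEV 3) to 0.41 (without HypEV 2) for the lid. It gave 0.19 (without NorEV 2) to 0.52 for the activators and the inhibitor and 0.12 (without HypEV 3) to 0.59 (without NorEV 3) for the assembly factors. In the 3 libraries with the smallest Gm23935 share the inducible and thymic subunits (-0.069), the ATPases (-0.18) and the lid (-0.22) lay below all genes.

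Relative to no change the 14 constitutive core subunits had a median log2 fold change of -0.01, with 7 under 0. The 17 subunits of the 19S particle had one of -0.28, with 15 under 0. Of all tested genes 74.9% lay under 0, with a median of -0.44. The medians of the core and of the 19S particle thus lay 0.43 and 0.17 above that of all genes. The difference between the particles was not tested. HypEV 1 had the lowest class median in 7 of the 8 classes. This is not particular to the members. The median of all tested genes was also lowest in HypEV 1, at 2.81 FPKM against 4.19 to 7.40 FPKM in the other libraries.

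The libraries of a group spread more than counting error gives. Over the 47 members with whole reads, the chi-square of the 3 libraries per degree of freedom, which would be about 1 for counting error alone, had a median of 3.17 in NorEV and 8.67 in HypEV. It exceeded 1 for 41 of 47 members in NorEV and for 44 in HypEV. With totals outside the Gm23935 family the medians were 3.35 and 4.89.

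**Figure D4:**
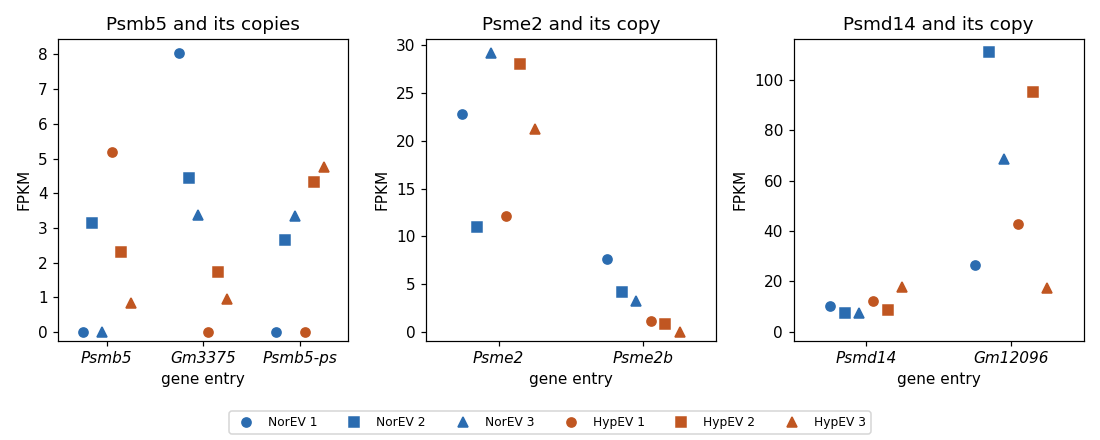
FPKM by library (points, NorEV and HypEV in different colours) of Psmb5, Psme2 and Psmd14 and of their near-identical copies. Psmb5 lies between 0 and 5.19 FPKM and its copy Gm3375 between 0 and 8.05 FPKM.

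Other genes of the ubiquitin-proteasome pathway, from a list of 30 genes that are no members, gave no call either. Of these 29 were tested and 0 passed, with 24 log2 fold changes under 0 and 5 above and a median of -0.44. All tested genes had 74.9% under 0 and a median of -0.44. The lowest p under 0 belonged to Stub1, a ubiquitin ligase that works with chaperones, and Ube3c, a ligase bound to the proteasome. Stub1 was at 6.02, 14.4 and 14.8 FPKM in NorEV and at 0, 9.10 and 4.08 FPKM in HypEV (log2 fold change -1.69 ± 0.86, adjusted p = 0.726). Ube3c was at 64.7, 47.7 and 23.1 FPKM and at 18.96, 22.7 and 24.1 FPKM (-0.90 ± 0.46, adjusted p = 0.726), with NorEV 1 and NorEV 2 above the rest. Leaving out 1 library moved Stub1 from -2.41 (without HypEV 2) to -0.74 (without HypEV 1) and Ube3c from -1.31 to -0.58 (without NorEV 1).

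Above 0 a small p belonged to Ubb, a polyubiquitin gene that supplies ubiquitin in stressed cells. It was at 5.49, 2.83 and 8.93 FPKM in NorEV and at 11.53, 20.3 and 6.06 FPKM in HypEV (log2 fold change 0.98 ± 0.59, adjusted p = 0.753, and 0.58 without HypEV 2). Nfe2l1, the transcription factor that induces proteasome genes when the proteasome is inhibited, was at 18.3, 23.7 and 21.7 FPKM in NorEV and at 9.33, 16.1 and 15.1 FPKM in HypEV. Its groups did not overlap, and its log2 fold change was -0.64 ± 0.40 (adjusted p = 0.754). Of the 29 tested genes of the list, 3 (10.3%) had non-overlapping groups with lower HypEV values, Nfe2l1, Txnl1 and Ddi2. The share over all tested genes was 10.8%.

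Other large complexes are given for comparison, and no difference between them was tested. The 78 cytosolic ribosomal protein genes had 44 log2 fold changes under 0 and 34 above and a median 0.35 above that of all genes. The 23 subunits of the V-ATPase, the proton pump of lysosomes and synaptic vesicles, had 19 and 4 and a median 0.11 above. Olfactory receptor genes, used as the background level, had 753 of 930 under 0 and a median of -0.45. Over all tested genes 74.9% lay under 0. The members, at 0.25 above all genes, lay between the V-ATPase and the ribosomal proteins.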

How the data were processed

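The authors deposited 1 table of FPKM values per library, with Ensembl gene identifiers; the table names mention HTSeq. The aligner, genome build and annotation are not given in the sources used here. Trizol was used for the RNA and the Epi mini longRNA-seq kit for the libraries, per the labels.

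Reads were recovered by multiplying out FPKM with the longest GENCODE M21 (GRCm38) transcript of each gene: 96.0% of values above 0 were whole within 0.01 reads, and 47 of 50 members (not Psma8, Psmb1 and Psmg2). Of the identifiers 53274 of 53379 matched. For 17 members that transcript is not coding. Exons of 4 members (Psmb5, Psmd1, Psme2b, Psmg3) overlap another gene on the same strand and those of 8 on the opposite strand.

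Genes averaging 1 FPKM or more were tested as log2(FPKM + 1) with limma 3.58.1 (under R 4.3.3; two-sided, trended eBayes, without covariates, Benjamini-Hochberg adjusted p under 0.05 over 44125 genes). The fold scale understates changes of low genes. The script was tested on simulated data. Copies were found with blastn 2.17.0 and overlaps with bedtools 2.31.1; matplotlib 3.10.9, scipy 1.17.1, numpy 2.4.6 and pandas 2.3.3 ran under Python 3.11.15. The alternatives were other scalings, pseudocounts, filters, limma-voom on recovered reads, a replicate block, leaving out each library, and only the 3 libraries with the smallest Gm23935 share.

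Members and lists were chosen with earlier results of these data known. Named members are, per class, the smallest p in each direction, the 3 highest and 3 lowest means, the catalytic pairs, tissue-restricted genes, activators, the inhibitor and Psmg factors, members with non-overlapping groups and those with a copy over 50% of their length; of the pathway list, 2 per direction by smallest p, of which 1 is not reported here. Psma3, Psmd6, Psmd8, Psmd13, Psmd4, Psmd11, Nfe2l1, Txnl1 and Ddi2 were added after their values were seen; other members are given by their means.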

Additional observations from a re-analysis of the deposited data

How the results depend on the processing

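No member passed in any of the 17 fits; the lowest adjusted p of a member ran from 0.0969 (limma-voom on all reads) to 0.969, and 0 to 6 members had an unadjusted p under 0.05. The members' median stayed above that of all genes. Over all genes the count of 7 became 0 with centred libraries, a pseudocount of 0.1, no filter, no variance trend or the replicate block, 231 with limma-voom on all reads and 60 when its totals excluded the Gm23935 family; leaving out 1 library gave 0 to 71, the 71 without HypEV 2, 2 without NorEV 1 or HypEV 1 and 0 without NorEV 2, NorEV 3 or HypEV 3. The cause was not tested. The labels do not say whether the replicate numbers pair the libraries. Deviations of same-numbered libraries correlated at 0.04, 0.10 and -0.06, which with 3 libraries per group cannot decide it. The replicate block changed no call of a member. In the 3 libraries with the smallest Gm23935 share (NorEV 2, NorEV 3 and HypEV 2) the medians relative to all genes were -0.069 for the inducible and thymic beta subunits, -0.18 for the ATPases and -0.22 for the lid. There Psmc3ip was at 0.25, Psmd10 at 0.66 and Psmd2 at 0.54. limma-voom on all reads gave -0.12 for Psmb8 and -0.090 for Psmc1. Leaving out 1 library gave -0.32 to 0.48 for Psmb8, -0.22 to 0.58 for Psmc1 and -0.87 to 0.16 for Psmd2. Of 255 alternative values of named fold changes, counted over settings that can move a fold change, 242 kept their direction and 13 did not. With few reads, as for Psmb5 and Psme2b, 1 read moves a value by a large share.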

Other observations

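Subunits of the lid and base differed in which libraries were high. The following were chosen after their values were seen, and no test was run on them. Psmd6, a lid subunit, was at 5.28, 31.1 and 32.8 FPKM in NorEV 1, 2 and 3 and at 6.73, 33.4 and 7.10 FPKM in HypEV 1, 2 and 3. NorEV 2, NorEV 3 and HypEV 2 were thus high and the other 3 libraries low. The 3 high libraries are also those with the smallest Gm23935 share, and a link was not tested. Psmd13, also of the lid, was at 11.96, 24.2 and 16.1 FPKM and at 5.16, 24.0 and 10.3 FPKM. Psmd4, a ubiquitin receptor of the base, was at 3.45, 22.7 and 21.5 FPKM and at 3.52, 15.99 and 9.28 FPKM, with NorEV 2, NorEV 3 and HypEV 2 highest. Lid subunits for which other libraries were highest were Psmd8, at 34.6, 12.5 and 16.9 FPKM and at 17.9, 8.02 and 30.9 FPKM, and Psmd11, at 27.1, 22.1 and 21.8 FPKM and at 17.6, 15.1 and 32.6 FPKM.

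A copy of Psma3, an alpha subunit, was also listed. Its processed pseudogene Gm13835 is 100% identical over 665 bases, 23.4% of the length of Psma3. Gm13835 was at 8.02, 19.6 and 16.6 FPKM in NorEV and at 0.682, 21.2 and 7.74 FPKM in HypEV. Psma3 itself was at 10.9, 6.46 and 7.29 FPKM and at 7.38, 7.05 and 8.51 FPKM.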
